A study of Mus musculus with 8 samples.

Results

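Mitochondrially encoded transcripts were described in the livers of 8 mice. They are the 10 genes whose name in the deposited table equals mt-Rnr1, mt-Rnr2, mt-Nd1, mt-Nd2, mt-Nd4, mt-Co1, mt-Co2, mt-Co3, mt-Cytb or mt-Atp6, out of 14506 listed genes, and all 10 passed the filter on low values (a mean normalized count of at least 10 over the livers). A normalized count is the number of reads counted in a gene, divided by a size factor for the library. Another 24 listed genes have a name that starts with mt-, of which 19 are transfer RNAs and 5 encode proteins. The mice were 4 Rragc+/+ and 4 RragcS74N/+ animals. Rragc encodes RagC, a GTPase through which amino acids and glucose activate mTORC1, and S74N is a germline substitution knocked in by genome editing and present on 1 allele, in every cell of the animal. Of the Rragc+/+ mice, replicates 1 to 3 were 3 months old and replicate 4 was 2.5 months old. Of the RragcS74N/+ mice, replicates 1 and 2 were 3 months old, replicate 3 was 2.5 months old and replicate 4 was 2 months old. Replicate numbers only name a mouse. The strain was C57BL/6, and no treatment is given for these mice. The labels name whole liver, and all 6 hepatocyte markers that were looked for were listed, with a summed normalized read count between 255154 and 466862.

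The mitochondrial genome is a small circle that encodes the 2 ribosomal RNAs and the transfer RNAs of the mitochondrial ribosome and a few subunits of the respiratory chain and ATP synthase. Both strands are copied by the polymerase POLRMT into long transcripts, which are cut, mostly at the transfer RNAs between the genes, into single RNAs. Most of the resulting messenger RNAs, and the ribosomal RNAs to a smaller extent, receive a short tail of adenines. Liver cells hold many mitochondria, so these RNAs make up a large part of liver RNA.

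The libraries were made with a kit that starts reverse transcription at a run of adenines (oligo-dT priming) and reads the 3′ end of each RNA in the sense direction. The annotated 3′ ends of the 10 genes are therefore shown first. Such a kit starts at the end of the RNA itself, which need not be the annotated end of the gene. Where each RNA ends was not tested. Each line gives the last 30 bases of the gene on GRCm38 chromosome M, forward strand, from the GENCODE M21 transcript, with the stop codon in capitals. The ribosomal RNAs have no stop codon and are in lower case throughout.
mt-Rnr1: aagcatactggaaagtgtgcttggaataat
mt-Rnr2: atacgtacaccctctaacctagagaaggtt
mt-Nd1: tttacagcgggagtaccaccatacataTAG
mt-Nd2: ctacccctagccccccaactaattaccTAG
mt-Co1: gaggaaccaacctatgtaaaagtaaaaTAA
mt-Co2: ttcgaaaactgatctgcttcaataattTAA
mt-Atp6: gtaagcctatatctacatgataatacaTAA
mt-Co3: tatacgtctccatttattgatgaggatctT
mt-Nd4: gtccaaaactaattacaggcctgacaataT
mt-Cytb: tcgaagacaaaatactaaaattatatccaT
In mt-Co3, mt-Nd4 and mt-Cytb the annotated gene ends in a lone T after the last complete codon, and the remaining letters of the stop codon come from the added tail. The longest run of adenines inside any of the 10 genes was 8 bases, in mt-Nd2, and the richest window of 20 bases held 16 adenines, in mt-Rnr2. All 10 genes lie on the strand that the annotation calls forward, from mt-Rnr1 at 70 to 1024 to mt-Cytb at 14145 to 15288. Positions after a gene's name below are first and last base on chromosome M of GRCm38, where each of these genes is annotated as a single exon.

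The nuclear genome holds copies of parts of the mitochondrial genome, and a read from a stretch that is the same in both cannot be placed. Over the whole transcript, the share of 50-base stretches that also occur in an annotated nuclear transcript was 0% for mt-Rnr1, mt-Nd1 and mt-Cytb, 1.04% for mt-Rnr2 and 8.19% for mt-Nd2. It was 51.1% for mt-Co1, 62.2% for mt-Nd4, 99.5% for mt-Atp6, 99.9% for mt-Co3 and 100% for mt-Co2. Reads of this kit are expected to gather in the last 300 annotated bases only where the RNA ends at the annotated end. Within these bases it was 0% for mt-Nd4, 31.9% for mt-Nd2 and 100% for mt-Co1. In that stretch it was 98.8% for mt-Atp6, 99.6% for mt-Co3 and 100% for mt-Co2. The matching copies of mt-Co2, mt-Atp6, mt-Co3 and mt-Nd4 lie in a single block on the reverse strand of chromosome 1. A copy of the last 483 bases of mt-Co1 lies in the same block. None of those copies is among the listed genes, so they have no counts here. The counts of mt-Co1, mt-Co2, mt-Co3 and mt-Atp6 are therefore uncertain. So is the comparison of their levels with those of the other 6 transcripts. mt-Nd2, with 31.9% of its end shared, is uncertain in part. Only annotated nuclear transcripts were searched, so a share of 0% does not show that a read fits 1 place in the genome.

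**Figure D1:**
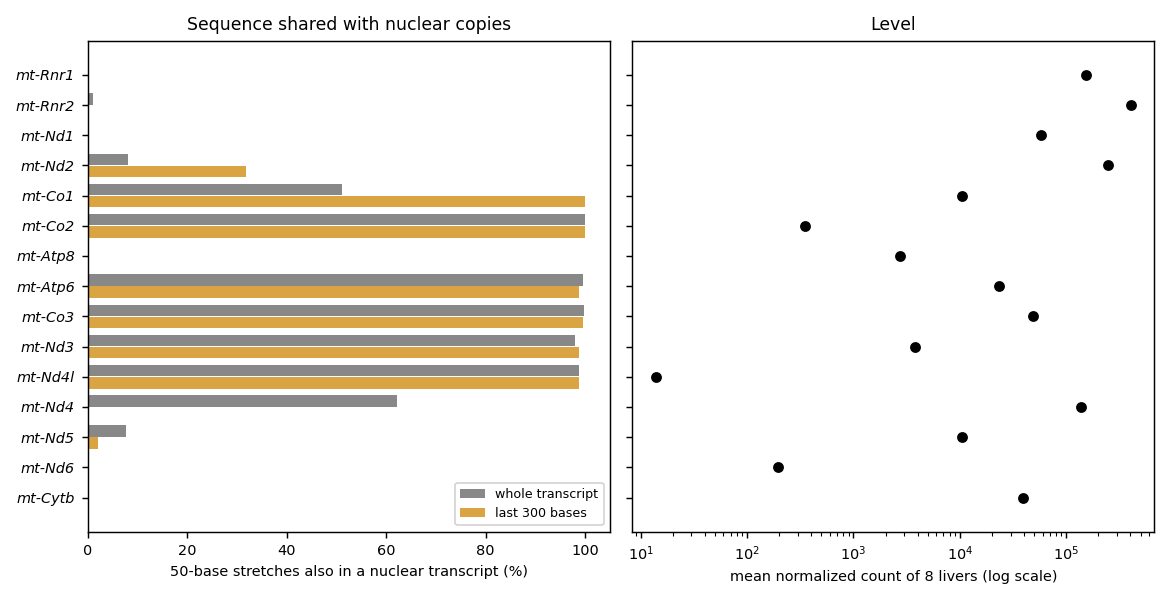
Left, percent of 50-base stretches of each mitochondrially encoded rRNA and mRNA that also occur in an annotated nuclear transcript, over the whole transcript (grey) and its last 300 bases (yellow); right, mean normalized count of 8 livers on a log axis. The last 300 bases of mt-Nd4 share 0% although 62.2% of the whole transcript is shared. Transcripts shared over nearly their whole length differ widely in level. mt-Co2 (100% shared) has the lowest mean of the 10 described transcripts, 352, while mt-Co3 (99.9%) has 48168 and mt-Atp6 (99.5%) has 23131.

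mt-Co2, which encodes subunit 2 of cytochrome c oxidase, shows how close these copies are. Its nuclear copy Gm28661 on chromosome 1 (24614885 to 24615565, reverse strand) was identical over 681 aligned bases, and its copy Gm13341 on chromosome 2 (22587291 to 22587962, reverse strand) was 95.9% identical over 684. The 60 bases of mt-Co2 that end 3 bases before its annotated end, chrM:7634-7693, are the same letters in all 3 genes.
mt-Co2, Gm28661 and Gm13341: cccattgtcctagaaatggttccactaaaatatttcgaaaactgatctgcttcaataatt
The 60-base window in which Gm13341 differed most, past the only gap in the alignment, was chrM:7486-7545, with 6 differences, shown in capitals.
mt-Co2 and Gm28661: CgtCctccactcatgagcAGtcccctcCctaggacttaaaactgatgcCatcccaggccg
Gm13341: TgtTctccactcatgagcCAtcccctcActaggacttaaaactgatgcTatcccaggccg

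The 10 transcripts took 15.8% to 22.7% of all reads counted in listed genes. The share was 20.5%, 20.4%, 22.7% and 15.8% in the Rragc+/+ mice, against 21.2%, 20.8%, 16.0% and 16.4% in the RragcS74N/+ mice, each in the order of replicates 1 to 4. The 2 lowest shares were those of the 2.5-month-old mice, 1 of each genotype, followed by the 2-month-old mouse. The mean share was 19.8% ± 2.90 for Rragc+/+ against 18.6% ± 2.79 for RragcS74N/+ livers (SD, n = 4 each), and the groups overlapped. The difference of -1.22 percentage points was smaller than either SD. With between 4313076 and 6632108 reads counted per liver, the 95% Wilson interval of each share was at most 0.0791 percentage points wide, and these intervals cover counting error only. In bulk tissue, fewer hepatocytes and less mitochondrial RNA per cell cannot be told apart.

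**Figure D2:**
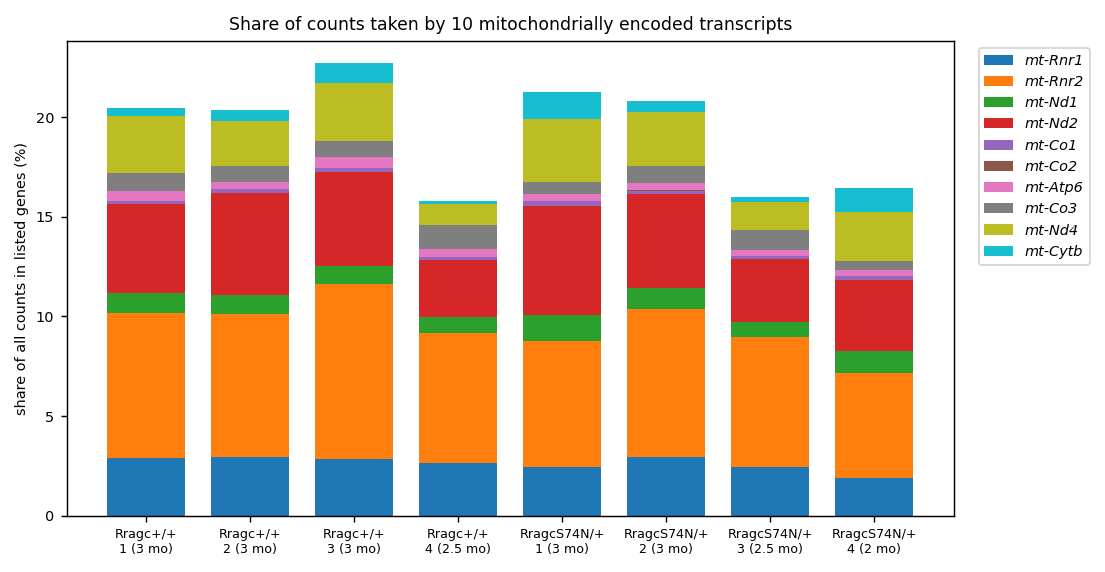
Stacked bars of the share of all counts in listed genes (percent, axis from 0) taken by each of the 10 transcripts in each of the 8 livers, with age in months under each bar. The 5 livers of 3-month-old mice stand between 20.4% and 22.7%, and the 3 livers of younger mice between 15.8% and 16.4%.

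Ribosomal RNAs and messenger RNAs contributed about equally to this share. The pair of rRNAs took 7.17% to 11.6% of the counts and the 8 mRNAs 6.61% to 12.5%. The ratio of rRNA to mRNA reads ranged from 0.700 in RragcS74N/+ replicate 1 to 1.39 in Rragc+/+ replicate 4. By genotype, the rRNA share was 10.3% ± 1.01 for Rragc+/+ against 8.81% ± 1.31 for RragcS74N/+ livers, and the mRNA share was 9.57% ± 2.00 against 9.81% ± 2.29 (SD, n = 4 each). The 19 listed transfer RNAs took 0.0253% to 0.0637%.

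Levels differed widely among the 10, from a mean normalized count of 352 for mt-Co2 to 402030 for mt-Rnr2. By this mean over 8 livers, mt-Rnr2 was the most abundant of all listed genes and mt-Nd2 was next. mt-Rnr1 ranked 5, mt-Nd4 6, mt-Nd1 11, mt-Co3 15, mt-Cytb 18, mt-Atp6 27, mt-Co1 55 and mt-Co2 1880. The ranges of neighbours in this order overlapped across the 8 livers, except between mt-Atp6 and mt-Co1 and between mt-Co1 and mt-Co2. Per kilobase of gene, the mean normalized count was 254128 for mt-Rnr2, 238170 for mt-Nd2 and 159854 for mt-Rnr1, against 6745 for mt-Co1 and 515 for mt-Co2. Per kilobase, mt-Co3 (61438) came before mt-Nd1 (59857) and mt-Atp6 (33967) before mt-Cytb (33864), the reverse of the order without length. For a kit that reads 3′ ends, counts are not expected to grow with gene length. How tails, runs of adenines inside genes and nuclear copies bear on the counts was not tested. These levels are therefore no measure of relative copies.

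To ask whether RragcS74N/+ livers differed from Rragc+/+ livers in these transcripts, each was compared between 4 and 4 mice. None passed the test. With limma on the log2(normalized count + 1) scale and Benjamini-Hochberg adjustment over 11174 genes, 0 of the 10 had an adjusted p under 0.05, 0 had an unadjusted p under 0.05, and the smallest adjusted p was 0.846. In the same fit 1 of the 11174 genes was called, a share of 0.00895%. edgeR and DESeq2 on the recovered whole reads also called 0 of the 10, and DESeq2 gave 1 of them an unadjusted p under 0.05. Log2 fold changes lay below 0 for 5 and above 0 for 5 transcripts, with a median of -0.017 beside 0.012 for all tested genes. The groups overlapped for each of the 10, as they did for all but 2.94% of tested genes.

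**Figure D3:**
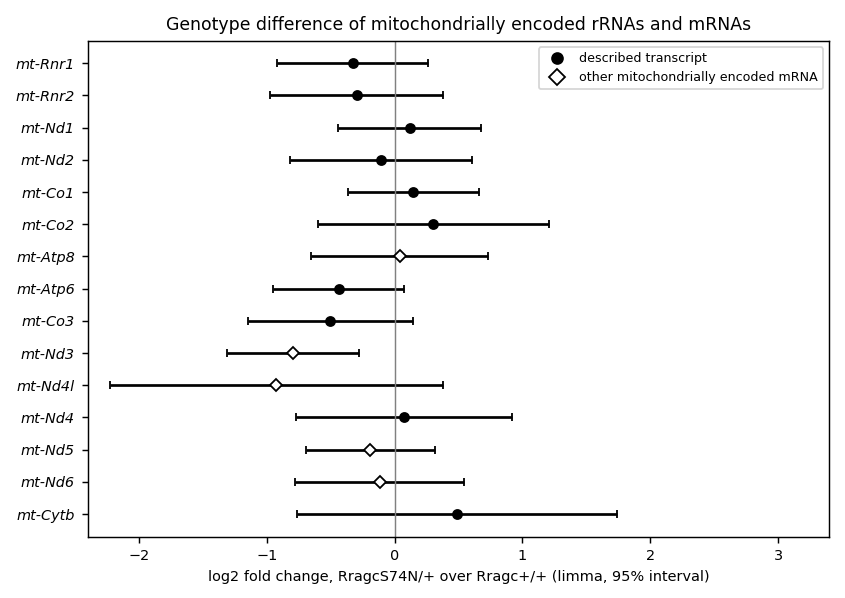
Log2 fold change of RragcS74N/+ over Rragc+/+ livers (horizontal axis) with its 95% interval from limma, for the 10 described transcripts (filled circles) and the 5 other mitochondrially encoded mRNAs (open diamonds), in order along the genome. The intervals of all 10 include 0, and among the others only that of mt-Nd3 does not, at an adjusted p of 0.846.

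mt-Rnr1 (70 to 1024) encodes the RNA of the small subunit of the mitochondrial ribosome. Its normalized counts were 176876, 170370, 174617 and 153669 in the Rragc+/+ mice (replicates 1 to 4), against 138829, 168486, 137247 and 101193 in the RragcS74N/+ mice (replicates 1 to 4). The 3 lowest were in RragcS74N/+ mice, but RragcS74N/+ replicate 2 lay within the Rragc+/+ range. The means were 168883 ± 10495 for Rragc+/+ against 136439 ± 27542 for RragcS74N/+ livers (SD, n = 4 each), and the log2 fold change was -0.33 ± 0.27 (SE) (exact two-sided permutation p = 0.0571, where 0.0286 is the smallest that 70 labellings allow).

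mt-Rnr2 (1094 to 2675) encodes the RNA of the large subunit. Its normalized counts were 440333, 413277, 534853 and 381618 in the Rragc+/+ mice (replicates 1 to 4), against 362445, 426428, 370589 and 286698 in the RragcS74N/+ mice (replicates 1 to 4). The highest value was in Rragc+/+ replicate 3 and the lowest in the 2-month-old RragcS74N/+ mouse. The means were 442520 ± 66067 for Rragc+/+ against 361540 ± 57429 for RragcS74N/+ livers (SD, n = 4 each), with a log2 fold change of -0.29 ± 0.31 (SE) (exact permutation p = 0.114). The ratio of mt-Rnr2 to mt-Rnr1 reads stayed between 2.43 and 3.06 over the 8 livers. It was 2.62 ± 0.300 for Rragc+/+ against 2.67 ± 0.130 for RragcS74N/+ livers (SD, n = 4 each), a difference smaller than the spread.

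mt-Nd1, mt-Nd2 and mt-Nd4 encode subunits of complex I, the enzyme that takes electrons from NADH. mt-Nd2 (3914 to 4951) was the most abundant mRNA of all listed genes, with normalized counts of 273495, 293151, 289048 and 168403 in the Rragc+/+ mice (replicates 1 to 4), against 312199, 270286, 179586 and 191599 in the RragcS74N/+ mice (replicates 1 to 4). The 5 livers of 3-month-old mice held 270286 to 312199 and the 3 livers of younger mice 168403 to 191599, with no overlap. Each genotype had livers in both ranges. This split was chosen after the values were seen, and the share of all tested genes that separate by age was not counted. Among the described transcripts, mt-Nd2 alone had no overlap by age. By genotype the means were 256024 ± 59025 for Rragc+/+ against 238417 ± 63541 for RragcS74N/+ livers (SD, n = 4 each), with a log2 fold change of -0.11 ± 0.33 (SE) (exact permutation p = 0.83). Gm13339, a nuclear copy of the last 510 bases, held 4.44 to 17.0 normalized counts.

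mt-Nd4 (10167 to 11544) had normalized counts of 172668, 130518, 178196 and 60873 in the Rragc+/+ mice (replicates 1 to 4), against 182480, 154727, 79662 and 133114 in the RragcS74N/+ mice (replicates 1 to 4). The 2 lowest values were in the 2.5-month-old mice of both genotypes, and the other 6 lay between 130518 and 182480. The means by genotype were 135564 ± 54155 for Rragc+/+ against 137496 ± 43529 for RragcS74N/+ livers (SD, n = 4 each), which differed by far less than the spread (log2 fold change 0.073 ± 0.39 (SE), exact permutation p = 0.8). Its first bases overlap mt-Nd4l (9877 to 10173), which held 4.08 to 28.1 normalized counts.

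mt-Nd1 (2751 to 3707) varied less, with normalized counts of 59929.7, 57652, 54845 and 45375 in the Rragc+/+ mice (replicates 1 to 4), against 77159, 61240.4, 42041 and 60024 in the RragcS74N/+ mice (replicates 1 to 4). The 2.5-month-old mice again held the 2 lowest values. The means were 54450.5 ± 6398 for Rragc+/+ against 60116 ± 14358 for RragcS74N/+ livers (SD, n = 4 each), and the log2 fold change was 0.12 ± 0.26 (SE) (exact permutation p = 0.543).

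mt-Cytb (14145 to 15288) encodes cytochrome b, the mitochondrially encoded subunit of complex III. It varied most of the 10, 7.41-fold between livers, with normalized counts of 25454, 31374, 59129.8 and 10211 in the Rragc+/+ mice (replicates 1 to 4), against 75637, 31586, 12129 and 64406 in the RragcS74N/+ mice (replicates 1 to 4). The 2.5-month-old mice of both genotypes were lowest, and the 3 highest were a 3-month-old Rragc+/+ mouse and the 3-month-old replicate 1 and the 2-month-old RragcS74N/+ mice. The means were 31542 ± 20439 for Rragc+/+ against 45939.6 ± 29281 for RragcS74N/+ livers (SD, n = 4 each), with a log2 fold change of 0.49 ± 0.58 (SE) and a 95% interval of -0.76 to 1.74 (exact permutation p = 0.457). This transcript shares no 50-base stretch with an annotated nuclear transcript.

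mt-Co1, mt-Co2 and mt-Co3 encode the core subunits of cytochrome c oxidase (complex IV), and their levels differed widely. mt-Co3 (8607 to 9390) had normalized counts of 55991, 46919, 48990 and 70118 in the Rragc+/+ mice (replicates 1 to 4), against 33796, 48318, 57314 and 23896 in the RragcS74N/+ mice (replicates 1 to 4). Its order of livers was nearly the reverse of that of mt-Cytb, with the 2.5-month-old mice highest and the 2-month-old mouse lowest. The means were 55504 ± 10487 for Rragc+/+ against 40831 ± 14878 for RragcS74N/+ livers (SD, n = 4 each), and the log2 fold change was -0.50 ± 0.30 (SE), with a 95% interval of -1.15 to 0.14 (exact permutation p = 0.229). The ratio of mt-Cytb to mt-Co3 reads ran from 0.146 in Rragc+/+ replicate 4 to 2.70 in RragcS74N/+ replicate 4, an 18.5-fold range.

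mt-Co1 (5328 to 6872) had normalized counts of 8539, 11581, 10895 and 8280.4 in the Rragc+/+ mice (replicates 1 to 4), against 14099, 11014, 7453 and 11502 in the RragcS74N/+ mice (replicates 1 to 4). The highest value was in RragcS74N/+ replicate 1 and the lowest in the 2.5-month-old RragcS74N/+ mouse. The means were 9824 ± 1660.1 for Rragc+/+ against 11017 ± 2735 for RragcS74N/+ livers (SD, n = 4 each), with a log2 fold change of 0.14 ± 0.24 (SE) (exact permutation p = 0.571). Its nuclear copy Gm13340 on chromosome 2, 97.6% identical over 1545 bases, held 99.0 to 212 normalized counts. A closer copy of its last 483 bases, Gm29216 on chromosome 1, was 99.8% identical and is not among the listed genes.

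mt-Co2 (7013 to 7696) was counted at a far lower level, with normalized counts of 259, 409.6, 444 and 141 in the Rragc+/+ mice (replicates 1 to 4), against 584, 379, 157 and 445 in the RragcS74N/+ mice (replicates 1 to 4), from 141 to 636 reads. The 2.5-month-old mice held the 2 lowest values. The means were 314 ± 140.2 for Rragc+/+ against 391 ± 178 for RragcS74N/+ livers (SD, n = 4 each), with a log2 fold change of 0.30 ± 0.42 (SE) and a 95% interval of -0.60 to 1.20 (exact permutation p = 0.571). Its nuclear copy Gm13341, whose window is printed above, held 188, 217, 311 and 72.9 in the Rragc+/+ mice (replicates 1 to 4), against 257, 202, 90.3 and 208 in the RragcS74N/+ mice (replicates 1 to 4). In log2 values the pair had a Pearson r of 0.94 over 8 livers, which share library and scaling, and Gm13341 had an r of 0.92 with mt-Cytb, of which it is no copy. Whether the low count of mt-Co2 comes with reads lost to, or shared with, these copies was not tested.

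mt-Atp6 (7927 to 8607) encodes a subunit of the proton channel of ATP synthase (complex V), in a messenger it shares with mt-Atp8. Its normalized counts were 29639, 21235, 34367 and 21883 in the Rragc+/+ mice (replicates 1 to 4), against 20014, 22768, 18566 and 16578 in the RragcS74N/+ mice (replicates 1 to 4). Rragc+/+ replicates 1 and 3 were above every RragcS74N/+ liver, and the other pair of Rragc+/+ livers was not. The means were 26781 ± 6337 for Rragc+/+ against 19481 ± 2605 for RragcS74N/+ livers (SD, n = 4 each), and the log2 fold change was -0.44 ± 0.24 (SE), with a 95% interval of -0.95 to 0.07 (exact permutation p = 0.0857).

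**Figure D4:**
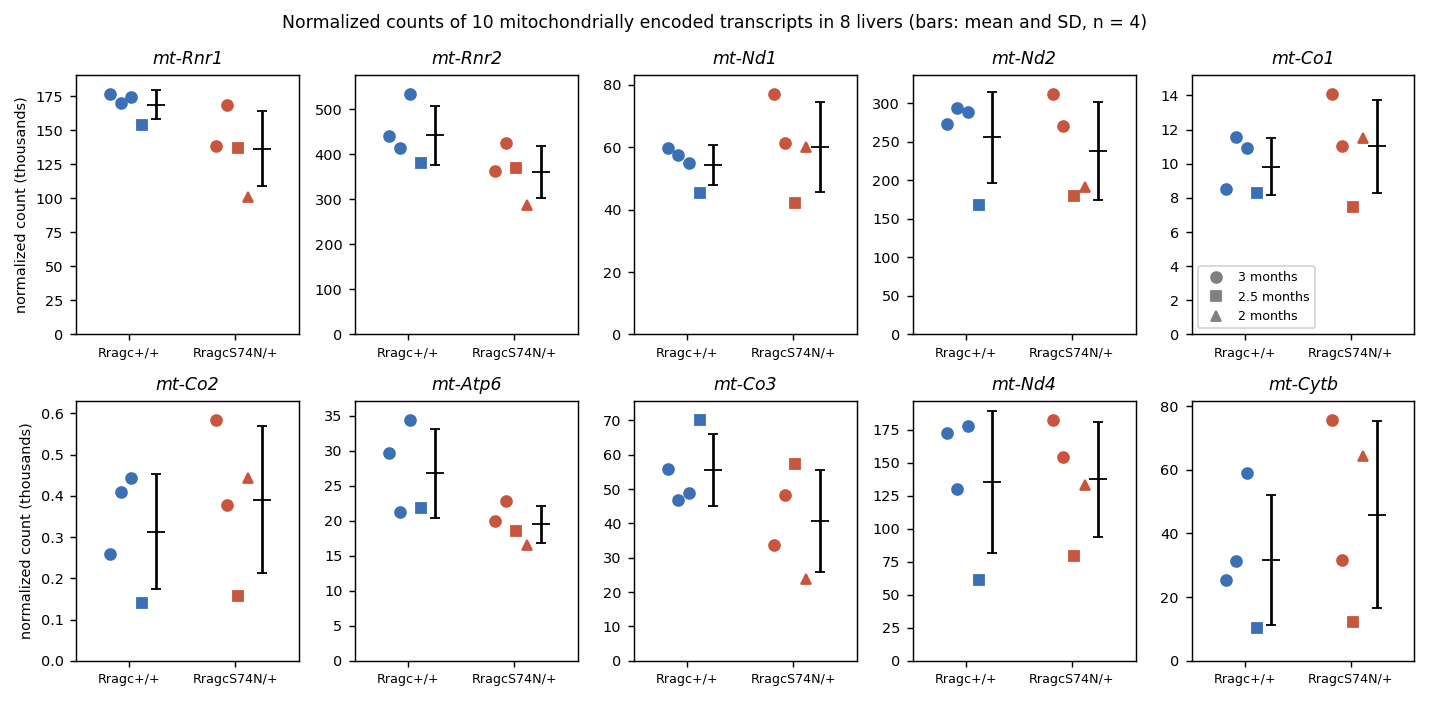
Normalized counts (in units of 1000, each axis from 0) of the 10 transcripts in 4 Rragc+/+ (blue) and 4 RragcS74N/+ (red) livers, with circles for 3 months, squares for 2.5 months and triangles for 2 months of age, and bars for mean and SD. The groups overlap in each panel, and the squares are lowest in the panels of mt-Nd1, mt-Nd2, mt-Nd4, mt-Co1, mt-Co2 and mt-Cytb.

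The 5 other mitochondrially encoded mRNAs were not among the described 10 but lie between them. mt-Nd3 (9459 to 9806), another complex I subunit, had normalized counts of 5418, 4274, 4702 and 4473 in the Rragc+/+ mice (replicates 1 to 4), against 2374, 3504, 3606 and 1795 in the RragcS74N/+ mice (replicates 1 to 4). It was lower in each RragcS74N/+ liver than in every Rragc+/+ liver, at 4717 ± 499 for Rragc+/+ against 2819.9 ± 882 for RragcS74N/+ livers (SD, n = 4 each). The log2 fold change was -0.79 ± 0.24 (SE) (exact permutation p = 0.0286, the smallest possible), but with limma the adjusted p was 0.846. Groups that do not overlap were seen for 2.94% of tested genes. All but its last bases, 345 of 348, align to the nuclear copy Gm28438 at 99.7% identity. The log2 fold changes of mt-Atp8, mt-Nd4l, mt-Nd5 and mt-Nd6 lay between -0.93 and 0.042, with adjusted p from 0.846 to 0.982. Over all 20 tested genes with a name starting with mt- outside the 10, 3 had a log2 fold change above and 17 below 0, with a median of -0.48. Most of them are transfer RNAs. The summed share of the listed transfer RNAs was 0.0613%, 0.0616%, 0.0511% and 0.0637% in Rragc+/+ mice (replicates 1 to 4). In RragcS74N/+ mice it was 0.0458%, 0.0535%, 0.0624% and 0.0253% (replicates 1 to 4). The lowest was the 2-month-old mouse, and its part in this count was not tested. With limma 0 of these 20 were called, and 3 had an unadjusted p under 0.05, beside 578 of all 11174 tested genes (5.17%).

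Kap, a gene of the kidney tubule that was included as a marker of another tissue, also had groups that did not overlap. Its normalized counts were 75.5, 75.8, 67.9 and 163 in the Rragc+/+ mice (replicates 1 to 4), against 34.9, 46.2, 6.69 and 10.6 in the RragcS74N/+ mice (replicates 1 to 4), with a log2 fold change of -2.20 (SE 0.54, limma adjusted p = 0.846). Slc34a1 and Slc12a1, other genes of the kidney tubule, did not follow it. Their mean normalized counts were 8.17 and 2.46 in Rragc+/+ against 8.90 and 2.52 in RragcS74N/+ livers, with overlapping groups, and both were under the filter and not tested. Hepatocyte markers summed to 255154 to 376657 in Rragc+/+ and 276300 to 466862 in RragcS74N/+ livers. Erythrocyte markers summed to 7782 to 14303 and 7828 to 13342, Kupffer cell markers to 1676 to 3018 and 1860.1 to 3148, and endothelial markers to 925 to 1277 and 913 to 1279.9. The part of these cell types in the levels of the mitochondrial transcripts was not tested.

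**Figure D5:**
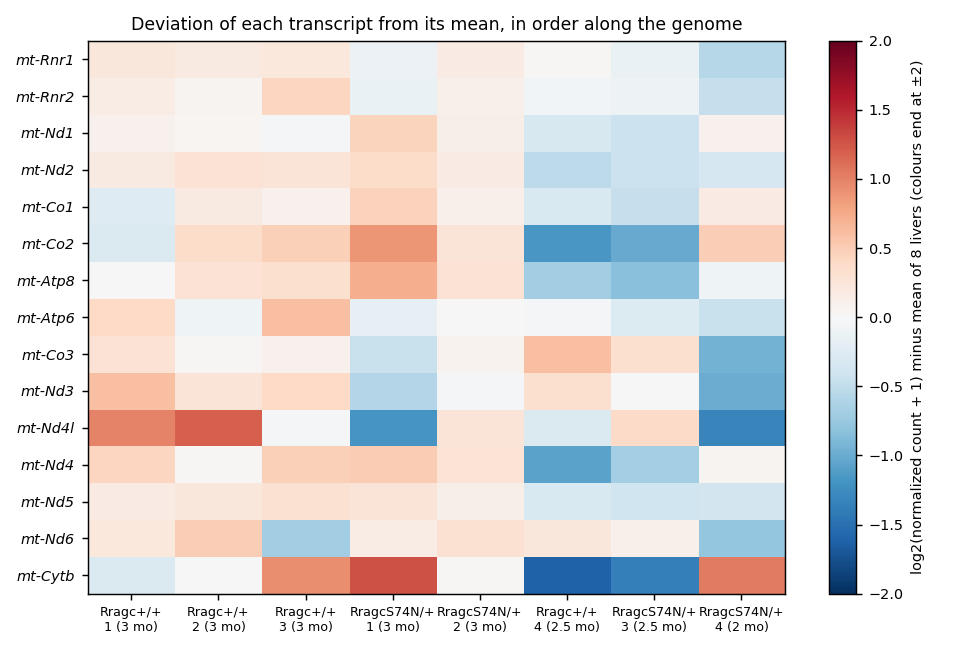
Log2(normalized count + 1) minus its mean over 8 livers (colour scale in log2 units, ending at ±2) for mitochondrially encoded rRNAs and mRNAs in order along the genome (rows) and for livers ordered by age (columns). mt-Cytb, mt-Co2, mt-Nd4 and mt-Atp8 are lowest in the 2.5-month-old mice of both genotypes, where mt-Co3 is high.

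The transcripts did not vary together as 1 block. Over the 8 livers, the 15 pairs among mt-Nd1, mt-Nd2, mt-Nd4, mt-Co1, mt-Co2 and mt-Cytb had Pearson r of log2 values from 0.64 to 0.96, with a median of 0.84. The 6 pairs among mt-Rnr1, mt-Rnr2, mt-Co3 and mt-Atp6 had r from 0.46 to 0.92, with a median of 0.76. Between these groups, r ranged from -0.81 (mt-Co3 with mt-Cytb) to 0.54, with a median of -0.052 over 24 pairs. The groups were drawn after the values were seen, n was 8, and the livers share scaling and library preparation, so these values are a description. mt-Cytb and mt-Co2 had the highest r, 0.96, although they lie far apart on the genome, and mt-Co2 and mt-Co3, which lie close together and encode subunits of the same enzyme, had an r of -0.74.

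Among tested genes that are not mitochondrially encoded, the 5 whose log2 values followed the summed count of the 10 most closely over 8 livers were Uck1 (Pearson r 0.95), Tsfm (0.947), Zfp81 (0.944), Selenoi (0.93) and Cherp (0.92). These 5 were picked as the highest r of all such genes over 8 livers, so their values are a description and no test. Uck1, the closest, held 169 to 197 normalized counts in 3-month-old and 97.0 to 119 in younger mice. The share of the 10 itself separated by age, so this split of Uck1 follows from how the gene was picked.

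Because the livers separated by age in the summed share, age was compared as well, a choice made after the values were seen. The share of the 10 transcripts was 21.1% ± 0.949 (SD, n = 5) in 3-month-old mice and 16.1% ± 0.330 (SD, n = 3) in younger mice, without overlap. With limma and genotype as a second term, 9 of the 10 had a log2 fold change below 0 in the younger mice, with a median of -0.39 beside -0.0038 for all tested genes. No member passed, with 0 of 10 called and a background of 0%. Their smallest adjusted p was 0.740 and 4 of 10 had an unadjusted p under 0.05, as did 734 of 11174 genes. edgeR also called 0 of the 10.

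The 2-month-old RragcS74N/+ liver differed from the 2.5-month-old pair in mt-Cytb and mt-Co2. Its summed share, 16.4%, was near theirs, 15.8% and 16.0%. Without this liver, the comparison was between 2 mice of 2.5 months, 1 of each genotype, and 5 mice of 3 months. That fit was picked out after these values were seen, so its calls do not measure an effect of age. In it limma called 411 of 11104 genes, 43 higher and 368 lower, a share of 3.70%. Of the 10 transcripts 3 were called, all lower at 2.5 months. mt-Cytb fell by 1.91 on the log2 scale (SE 0.33, limma adjusted p = 0.00500), mt-Co2 fell by 1.46 (SE 0.26, limma adjusted p = 0.00519) and mt-Nd4 fell by 1.24 (SE 0.27, limma adjusted p = 0.0184). mt-Atp8, which is not among the 10, fell by 1.10 (SE 0.21, limma adjusted p = 0.00775). mt-Co3 had a log2 fold change of 0.49 (SE 0.24, limma adjusted p = 0.280), and mt-Rnr1 and mt-Rnr2 had values of -0.17 and -0.18. With the 2-month-old liver included, none of these calls held, and that liver had mt-Cytb and mt-Co2 near the top of the range.

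Both 2.5-month-old livers lay above or below the range of the other 6 for 22.2% of all tested genes, 2484 of 11174, and for 7 of the 10 transcripts, 6 of them lower and mt-Co3 higher. This split was chosen after the values were seen. Of 29 listed nuclear-encoded subunits and partners of the respiratory complexes, 13 lay outside in this way, 10 lower and 3 higher. Of 10 markers of mitochondrial mass, 3 did, all lower. Of 25 genes of mitochondrial RNA processing, 5 did, 4 lower and 1 higher. Of 8 regulators of mitochondrial biogenesis 2 did, and of 19 genes of mitochondrial transcription and DNA maintenance 0 did. Of 11 listed genes of the circadian clock, 5 lay outside in this way, 4 higher (Dbp, Nr1d1, Nr1d2 and Per3) and Arntl lower, while Tef, Cry1, Per1, Per2, Npas2 and Clock did not. Of these 11, 9 were tested by age, under 3 months against 3 months, and limma called 0. An unadjusted p under 0.05 was seen for 3 of the 9, beside 6.57% of all tested genes. Dbp, a clock output gene, held 11.2, 3.74, 11.3 and 57.9 in the Rragc+/+ mice (replicates 1 to 4), against 6.43, 4.44, 126 and 4.89 in the RragcS74N/+ mice (replicates 1 to 4). Nr1d1, a clock repressor, held 389.7, 279, 280.1 and 734 in the Rragc+/+ mice (replicates 1 to 4), against 154, 363, 846 and 187 in the RragcS74N/+ mice (replicates 1 to 4), and its target Arntl held 56.9, 82.3, 56.6 and 21.5 in the Rragc+/+ mice (replicates 1 to 4), against 120.3, 108, 20.1 and 146 in the RragcS74N/+ mice (replicates 1 to 4). The 2.5-month-old mice were highest for Dbp and Nr1d1 and lowest for Arntl, while the 2-month-old mouse lay with the 3-month-old mice for Dbp and Nr1d1. These genes were chosen after their values were seen, the hour at which livers were taken is not given in the sources used here, and the part of collection time in the age difference was not tested.

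The nuclear genes that act on mitochondrial RNA were described from lists, and no member of any list passed the test for genotype. For transcription and DNA maintenance, 16 of 19 listed genes were tested, 10 with a log2 fold change above and 6 below 0. Tfb1m, a methyltransferase of the small rRNA, had a log2 fold change of 0.76 (SE 0.47) and Polrmt, the polymerase, of -0.17 (SE 0.26), while Twnk, the DNA helicase, had 0.44 and the nuclease Mgme1 -0.18. Tfam, which packs mitochondrial DNA, held 136, 131, 133 and 142 in the Rragc+/+ mice (replicates 1 to 4), against 126, 175, 100.3 and 112 in the RragcS74N/+ mice (replicates 1 to 4).

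For processing and stability of mitochondrial RNA, 25 of 25 genes were tested and 0 were called. The log2 fold change was above 0 for 11 and below 0 for 14 of the 25. With limma, 3 of the 25 had an unadjusted p under 0.05, all lower, beside the 5.17% of all tested genes. Tbrg4, a FASTK-family protein that acts on mitochondrial mRNAs, had a log2 fold change of -0.68 (SE 0.25) and Mrpl12, a ribosomal protein that also binds the polymerase, of -0.53 (SE 0.24), both at an adjusted p of 0.846. Mrm1, an rRNA methyltransferase, had 0.87 (SE 0.63) and Fastk 0.57 (SE 0.49). The median of the list was -0.044 beside 0.012 for all tested genes.

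Of the nuclear-encoded subunits and assembly partners of the same complexes, 29 of 29 listed genes were tested. The log2 fold change was above 0 for 20 and below 0 for 9, with a median of 0.11. Cox7c and Cox5b, subunits of complex IV, had log2 fold changes of 0.83 (SE 0.84) and 0.54 (SE 0.28), and Ndufv1 of complex I and Atp5d of complex V had -0.36 (SE 0.27) and -0.33 (SE 0.19). Among 8 regulators of mitochondrial biogenesis, 5 lay above and 3 below 0, from -0.17 for Gabpb1 and -0.059 for Pprc1 to 0.49 for Ppargc1a and 0.78 for Esrra. Among 10 markers of mitochondrial mass, 5 lay above and 5 below 0, from -0.26 for Immt and -0.11 for Tomm40 to 0.23 for Phb2 and 0.55 for Vdac2. By age, under 3 months against 3 months, 4 of these 10 markers lay above and 6 below 0, with a median log2 fold change of -0.090 beside -0.0038 for all tested genes, and 0 were called. The nuclear copies Gm13339, Gm13340, Gm13341 and Gm20594 were not called. The nuclear RNAs Malat1 and Neat1, a check on the share of nuclear RNA, had log2 fold changes by genotype of 0.0094 and 0.21. By age, under 3 months against 3 months, Malat1 had 0.59 (SE 0.28) and Neat1 0.18 (SE 0.24), and neither was called. The part of nuclear RNA in the age difference of the mitochondrial share was not tested.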

How the data were processed

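Total RNA of whole liver was sequenced from 8 mice with a QuantSeq 3′ mRNA kit, in the sense orientation and without stated molecular identifiers. RNA integrity numbers in the labels averaged 7.2. Per the submitters' processing notes and the study's methods, the authors used TopHat2 2.0.10, Bowtie 1.0.0 and SAMtools 0.1.19 to place reads on GRCm38, counted them per gene by strand with HTSeq 0.6.1 against a GENCODE annotation and scaled them with DESeq. The deposited signal is a normalized count per gene and liver for 14506 genes. How reads with several alignments were counted is not given in the sources used here. Every value (100%) was a whole multiple of 1 step per liver, within 0.01, so whole reads were recovered (4313076 to 6632108 per liver).

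Genes with a mean of at least 10 (11174) were tested with limma 3.58.1 in R 4.3.3, with trend, on log2(normalized count + 1), which understates the change of low genes. Genotype was the only term, with Benjamini-Hochberg adjustment at 0.05. As alternatives, recovered reads went through edgeR 4.0.16 (quasi-likelihood) and DESeq2 1.42.0. Single transcripts were also compared with exact two-sided permutation tests over 70 labellings. The labellings ignored age, which was not balanced between the genotypes. Groups came from the labels, and no label says more than that each library is a separate sample. Between any pair of libraries, the chi-square divided by its degrees of freedom was at least 14.6, so no pair looked like 1 library entered again. Scripts were tested on simulated data.

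Coordinates and sequences are from GENCODE M21 on GRCm38, in which 14458 listed names were found. Nuclear copies were found with BLAST (identity of at least 95% over at least 300 bases) and shared 50-base stretches by exact match. Each of the 10 transcripts was named, together with the 2 highest and 2 lowest of each list and the 5 genes most correlated with the summed count. The transcripts and the lists were chosen with earlier results of these data known. The comparison by age and the clock genes were added after the values were seen. Alternatives were pseudocounts of 0.1 and 5, filters of 0 or 50, TMM, upper-quartile and non-mitochondrial scaling, no trend, age as a term, 3-month-old mice alone, other denominators of the share, and leaving out each liver.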

Additional observations from a re-analysis of the deposited data

Results flagged for a closer look

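In groups of 4 livers, a value was marked when its gap to the nearest of the others took a larger part of the group's range than Dixon's 95% critical value. Of 46 groups checked, 2 were marked, where chance marks about 1 in 20. The normalized count of mt-Nd2 was 168403 in Rragc+/+ replicate 4, a 2.5-month-old mouse, against 273495 to 293151 in the other Rragc+/+ livers. In the same liver the ratio of mitochondrial rRNA to mRNA reads among the 10 transcripts was 1.39, against 0.984 to 1.05 in the others. Without this liver, the difference in the summed share between genotypes was -2.57 percentage points instead of -1.22. That fit left only 3-month-old mice in the Rragc+/+ group, whereas RragcS74N/+ replicates 3 and 4 were younger. In 3-month-old mice alone, the shares were 20.5%, 20.4% and 22.7% in Rragc+/+ against 21.2% and 20.8% in RragcS74N/+ livers.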

How the results depend on the processing

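No paired analysis was possible because replicate numbers follow only the order of the samples. For genotype, 0 of the 10 transcripts were called under every alternative run. Over all genes, where 1 was called, the number was 0 with scaling by non-mitochondrial counts, without the limma trend, with age as a covariate and in 3-month-old mice alone, 3 with age as a factor (added after seeing the data) and 10 with DESeq2. Leaving out 1 liver gave 0 to 2 calls, and 2 only without RragcS74N/+ replicate 3. Scaling moved the median of all genes by less than 0.1. The log2 fold change of mt-Nd2 turned from -0.11 to 0.11 with age as a covariate, 0.046 with age as a factor and 0.027 in 3-month-old mice alone. Leaving out 1 liver gave -0.013 to 0.28 for mt-Nd1, -0.30 to 0.017 for mt-Nd2, -0.27 to 0.31 for mt-Nd4 and -0.035 to 0.69 for mt-Co2, so their direction depended on single livers. The difference in summed share ranged from -2.57 to -0.26 points over these fits and was 0.24 for mRNAs alone. The value of -2.57 came without Rragc+/+ replicate 4, which left only 3-month-old mice in that group. By age, calls over all genes ranged from 0 to 411 and calls of the 10 from 0 to 3, the highest only without RragcS74N/+ replicate 4. mt-Co3 turned from 0.13 to -0.012 without genotype as a term, and ranged from -0.13 to 0.49 on leaving out 1 liver. The cause of these changes was not tested. With 4 mice per genotype, the 95% intervals of the 10 transcripts reached 0.070 to 1.74 on the log2 scale at their upper end and -1.15 to -0.37 at their lower end.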
